A study of Mus musculus with 8 samples.

Results

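The genes described here are 40 regulators of the cell division cycle, namely cyclins, cyclin dependent kinases (CDKs), their inhibitors, the pocket proteins and the E2F factors. The list was drawn up with earlier results of these data known. Its members were matched by gene symbol, and all 40 were found among the 38115 genes listed in the count files. By the phase in which they are best known to act, 16 are G1 regulators, 13 are S phase regulators and 10 are G2/M regulators, and Cdk7 was kept apart because it activates the kinases of every phase. RNA was sequenced from 8 orthotopic tumors of Myc-CaP, a murine prostate cancer cell line derived from a mouse with a MYC transgene under a prostate specific promoter. Cells were injected into the anterior prostate of FVB male mice that were intact or had been castrated beforehand. There were 4 primary and 4 metastatic tumors, and each of these groups held 2 androgen sensitive tumors (Myc-CaP/AS) and 2 castrate resistant tumors (Myc-CaP/CR). Every primary tumor with labels and counts was used, although the study describes fewer of them in its own comparison and does not say which. Each phenotype is a single cell line, the tumors still hold cells of the host, and neither the ages of the mice nor the sites of the metastases were given. The labels call the metastases matched but do not name the primary tumor of each, so tumors of a phenotype may share a mouse. Names such as primary AS1 or metastatic CR2 give tumor type, phenotype and a running number, and the numbers carry no pairing between a metastasis and its primary tumor.

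In G1, the D-type cyclins bind CDK4 and CDK6 and start the phosphorylation of the retinoblastoma protein, and the INK4 inhibitors block that step by binding the kinases. The activating E2F factors, held back by the pocket proteins, then turn on E-type cyclins and the genes of DNA replication, while the atypical factors E2F7 and E2F8 repress the same targets later in S phase. A and B cyclins with CDK1 carry the cell through G2 and mitosis, against the brake of WEE1 and PKMYT1 and with the help of the CDC25 phosphatases. Many genes of late G2 and mitosis are silenced in resting cells by the DREAM complex, which sits at a short promoter element called CHR (cell cycle genes homology region), often near CCAAT boxes bound by NF-Y. Loss of control at the G1 step is common in prostate cancer, and genes of the mitotic group are the usual core of proliferation signatures.

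The promoters of Ccnb2, Cdk1, Ccnf, Cdkn3 and E2f8, which are described below between tumor types, and of E2f2 and Ccnd3, whose levels differed between phenotypes, are given first. They are RefSeq sequences of the build GRCm38.p6, read 5′ to 3′ on the strand of the gene, up to 250 bases before the start of transcription and without any base that lies in an annotated exon. Capitals mark matches on either strand to the CHR-like letters TTTGAA or TTCGAA, to CCAAT, and to the E2F-like letters TTTCGCGC, TTTGGCGC or TTCCCGCC. Matches close to the start can fall outside the printed bases. Examples are CHR-like letters at position -15 for Cdk1, -14 for Ccnf and 5 for Ccnb2, counted from the start. The printed promoters are a selection. Those of Ccnb1, E2f7 and Ccne1, also described between tumor types, hold no CHR-like letters and are not printed.
Ccnb2 (chr9:70421555-70421804, minus strand): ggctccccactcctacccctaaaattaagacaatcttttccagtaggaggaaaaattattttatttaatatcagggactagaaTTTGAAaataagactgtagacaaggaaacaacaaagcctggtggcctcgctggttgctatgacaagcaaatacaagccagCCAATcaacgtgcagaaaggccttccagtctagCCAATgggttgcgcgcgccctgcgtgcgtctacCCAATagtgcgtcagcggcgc
Cdk1 (chr10:69352939-69353162, minus strand): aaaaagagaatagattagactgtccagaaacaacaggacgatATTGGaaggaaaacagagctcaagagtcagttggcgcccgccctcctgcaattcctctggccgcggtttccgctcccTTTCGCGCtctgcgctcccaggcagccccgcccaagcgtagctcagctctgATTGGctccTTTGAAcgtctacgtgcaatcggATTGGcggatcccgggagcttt
Ccnf (chr17:24251485-24251659, minus strand): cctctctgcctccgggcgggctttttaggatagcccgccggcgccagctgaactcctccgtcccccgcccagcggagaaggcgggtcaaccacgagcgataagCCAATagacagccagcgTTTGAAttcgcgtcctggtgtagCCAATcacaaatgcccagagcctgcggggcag
Cdkn3 (chr14:46760291-46760540, plus strand): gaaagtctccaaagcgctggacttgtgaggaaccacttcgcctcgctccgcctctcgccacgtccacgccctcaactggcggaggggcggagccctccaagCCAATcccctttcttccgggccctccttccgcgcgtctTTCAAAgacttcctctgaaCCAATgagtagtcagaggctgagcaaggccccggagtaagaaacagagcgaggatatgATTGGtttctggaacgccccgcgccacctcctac
E2f8 (chr7:48881597-48881846, minus strand): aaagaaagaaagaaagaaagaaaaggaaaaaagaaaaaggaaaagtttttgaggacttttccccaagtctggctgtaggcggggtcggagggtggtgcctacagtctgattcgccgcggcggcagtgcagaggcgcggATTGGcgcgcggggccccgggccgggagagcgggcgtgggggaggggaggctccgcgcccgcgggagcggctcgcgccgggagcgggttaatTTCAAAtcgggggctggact
E2f2 (chr4:136172024-136172273, plus strand): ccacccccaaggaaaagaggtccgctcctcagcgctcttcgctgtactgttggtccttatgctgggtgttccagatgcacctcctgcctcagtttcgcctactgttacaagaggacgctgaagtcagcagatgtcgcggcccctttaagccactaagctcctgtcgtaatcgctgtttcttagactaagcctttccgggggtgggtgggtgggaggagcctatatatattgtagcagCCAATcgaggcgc
Ccnd3 (chr17:47504801-47505050, plus strand): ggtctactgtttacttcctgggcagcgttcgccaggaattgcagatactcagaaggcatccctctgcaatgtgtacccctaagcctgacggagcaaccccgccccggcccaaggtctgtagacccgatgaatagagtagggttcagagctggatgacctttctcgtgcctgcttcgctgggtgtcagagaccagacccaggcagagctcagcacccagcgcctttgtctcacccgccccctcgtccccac
Promoter windows were matched for 29 of the 40 regulators. Over the whole window of 300 bases, from 250 before to 50 after the start, CHR-like letters were found in 5 of 6 G2/M genes, in 3 of 12 S phase genes and in 2 of 10 G1 genes, against 19.23% of the 32851 promoters in the table. The letters CCAAT were found in 6 of 6 G2/M genes, 6 of 12 S phase genes and 5 of 10 G1 genes, against 37.41% of all promoters. E2F-like letters were found in 1 of 6 G2/M genes, 5 of 12 S phase genes and 0 of 10 G1 genes, against 2.96% of all. E2f2 and Ccnd3 each have a second start in the table, which is not printed but is counted here, with 3 CCAAT and 1 CHR-like match for E2f2 and 1 CCAAT for Ccnd3. A match describes letters only and does not show that a factor was bound, and genes with more than 1 annotated start had more than 1 chance of a match.

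Before the results, some properties of the libraries are needed. The total count was between 20905806 and 91886163 per tumor, and each tumor's counts were scaled by TMM (trimmed mean of M-values) factors to CPM, counts expressed relative to a common effective library size. The mitochondrial ribosomal RNA genes and Lars2 took 2.67% of the counts in primary CR1, 11.6% to 14.7% in the AS tumors and 19.8% to 32.4% in the other 3 CR tumors. The library identifiers in the labels ran in 2 separate series, 1 for each phenotype, and the 4 AS libraries had 61237285 to 91886163 counts while 3 of the 4 CR libraries had at most 40586710. A difference between phenotypes and a difference between those series cannot be told apart. Of the epithelial markers reported here, Krt8 was at 36.4 to 710 CPM, but Epcam, Krt18 and Cdh1 were at 0.606 CPM or below in every tumor. The summed level of 5 macrophage markers ranged from 302 to 450 CPM in primary and from 184 to 404 CPM in metastatic tumors, and that of 5 T and B cell markers stayed at or below 0.718 CPM. Between tumor types the 4 muscle markers tested had negative log2 differences (median -0.88), with sums of 5.004 to 26.1 CPM in primary and 7.32 to 12.2 CPM in metastatic tumors, as had 4 of 5 fibroblast markers (median -0.33), and 3 of 4 endothelial markers had positive ones (median of the 4 markers 0.47). Between phenotypes 5 of 5 macrophage markers (median -0.54) and 3 of 3 erythroid markers (median -0.89) had negative differences, with CR minus AS. None of these markers passed the adjusted threshold, and their part in the results was not tested. In bulk tumors fewer cells of a type and less RNA per cell cannot be told apart.

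Per length, as CPM per kilobase of exon, the highest levels were mostly those of G1 regulators. Other G1 regulators lay low, such as Ccnd2 at 0.439 and Cdkn1c at 0.490. The length merges the exons of all transcripts of a gene. Cdk4 came first at 45.9 ± 8.82 (SD, n = 8), followed by Ccnd1 at 31.3 ± 9.15, Cdkn2a at 30.5 ± 6.57, the E2F partner Tfdp1 at 27.9 ± 13.8, Cdkn1b at 17.8 ± 3.29 and Cdkn2c at 15.5 ± 6.25. The ranges of each of these genes over the tumors overlapped that of the next, from 35.0 to 63.9 for Cdk4 and from 18.1 to 44.7 for Ccnd1. Cdk7 followed at 13.1 ± 1.53 and varied 1.47-fold between its lowest and highest tumor. At the other end, E2f6 was at 0.110 ± 0.0519, E2f7 at 0.114 ± 0.0414 and Pkmyt1 at 0.341 ± 0.104 CPM per kilobase. Among the D-type cyclins, Ccnd1 supplied 86.7% of the summed CPM per kilobase in primary AS1 and 96.3% in primary CR1, with the other tumors between these. Cdk4 exceeded Cdk6 between 13.8-fold and 43.4-fold on the same scale. The G2/M regulator with the highest level was Ccna2 at 6.62 ± 4.33, and the spread of the mitotic genes was wide, since Ccnb1 varied 10.2-fold, Cdkn3 11.3-fold and Cdc25c 9.56-fold between tumors. E2f2 varied most, 34.1-fold, and E2f4, the repressor E2F of resting cells, least, 1.36-fold. For Ccnb1, Cdkn3, Cdc25c and E2f2 the lowest tumor was primary CR2, with only 64, 5, 9 and 6 counts. Cdkn2a encodes both p16 and p19Arf from overlapping exons, and a count per gene does not separate them.

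**Figure D1:**
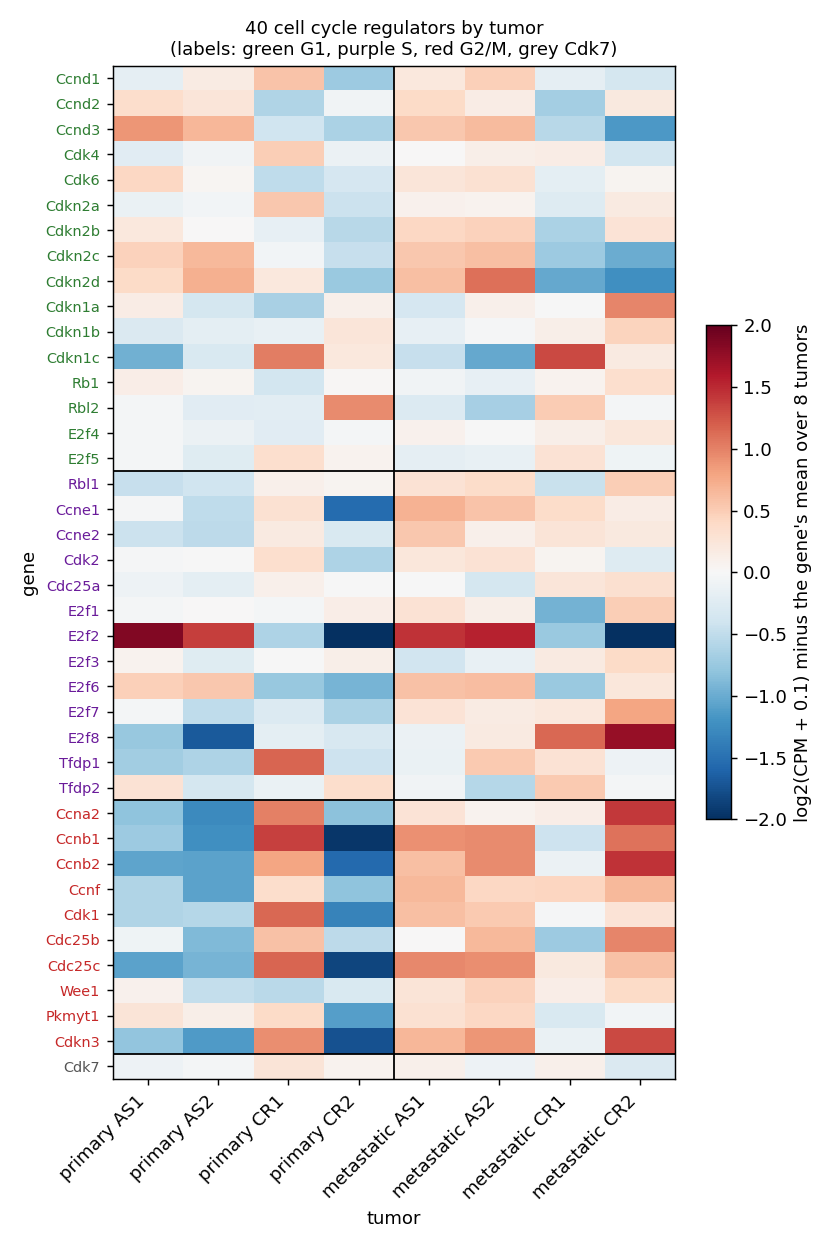
Level of the 40 regulators in the 8 tumors, as log2(CPM + 0.1) minus the mean of the gene over all tumors, with the color scale clipped at -2 and 2. Rows are ordered by phase and columns by tumor type. Most G2/M rows are low in 3 of the 4 primary tumors and high in primary CR1, with Wee1 and Pkmyt1 as exceptions, while E2f2, Ccnd3, Cdkn2c and Cdkn2d follow phenotype in both tumor types.

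The first comparison asked which regulators differed between castrate resistant and androgen sensitive tumors, with tumor type as a term in the model. Matched tumors were treated as independent here, so the p-values and SDs do not account for tumors that share a mouse. By the quasi-likelihood test of edgeR, adjusted over 17104 genes by the Benjamini-Hochberg method, 6 of the 40 regulators passed an adjusted p of 0.05, which is 15% of them, against 12.2% of all genes tested. The share is therefore close to that of the transcriptome, and what follows describes which genes these were. Ccnd3, Cdkn2c, Cdkn2d and E2f2 were lower in CR tumors, which is 10% of the regulators against 6.01% of all genes, and Cdkn1c and E2f8 were higher, which is 5% against 6.16%. The log2 difference was positive for 26 of the 40, which is 65%, against 49.2% of all genes. By phase, 4 were G1 regulators, 2 were S phase regulators and none of the 10 G2/M regulators passed (1 of them, Ccna2, had an unadjusted p below 0.05).

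Cyclin D3 and cyclin D2 are the less abundant partners of CDK4 and CDK6 in these tumors. Ccnd3 (ENSMUSG00000034165, chr17:47505051-47599691, plus strand, GRCm38) was at 31.1, 26.7, 24.3 and 26.1 CPM in primary AS1, primary AS2, metastatic AS1 and metastatic AS2. It was at 12.7, 10.8, 11.4 and 7.49 CPM in primary CR1, primary CR2, metastatic CR1 and metastatic CR2. Every CR tumor lay below every AS tumor. The means were 27.1 ± 2.90 CPM in AS and 10.6 ± 2.23 CPM in CR tumors (SD, n = 4), and the fitted level fell by 1.35 (SE 0.17) on the log2 scale, a 2.55-fold difference (adjusted p = 0.00474). Ccnd1 and Ccnd2 did not pass. Ccnd1 was at 125, 159, 164 and 196 CPM in the AS tumors and at 211, 85.5, 126 and 111 CPM in the CR tumors in the same order, with a log2 difference of -0.28 (SE 0.29), and the groups overlapped, with primary CR1 the highest of the 8. Without primary CR1 the difference of Ccnd1 was -0.67 (adjusted p = 0.017). That fit called 4133 of 17393 genes, and among the regulators 2 higher and 6 lower. Cdk4 differed by 0.11 (SE 0.21) on the log2 scale, with 126 to 160 CPM in AS and 114 to 207 CPM in CR tumors. The other G1 kinase, Cdk6, had a log2 difference of -0.50 (SE 0.15, adjusted p = 0.0658).

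Of the 4 INK4 inhibitors, 2 passed. Cdkn2c, which encodes p18, was at 52.5, 59.7, 55.3 and 58.0 CPM in the AS tumors and at 36.9, 27.6, 23.0 and 19.0 CPM in the CR tumors, without overlap. It fell by 1.11 (SE 0.18) on the log2 scale, 2.16-fold, with an adjusted p of 0.0102. Cdkn2d, which encodes p19Ink4d, was at 4.55, 5.77, 5.31 and 7.60 CPM in AS and at 4.02, 2.03, 1.67 and 1.42 CPM in CR tumors. The lowest AS tumor and the highest CR tumor, primary CR1, were thus close, and the decrease of 1.39 (SE 0.36) passed with an adjusted p of 0.0389. The p15 gene Cdkn2b had a log2 difference of -0.53 (SE 0.29) and did not pass. Cdkn2a was at 32.1, 33.8, 37.1 and 36.8 CPM in AS and at 51.2, 25.9, 29.2 and 39.9 CPM in CR tumors, a difference of 0.07 (SE 0.22) with the AS range inside the CR range.

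Of the CIP/KIP inhibitors, which bind cyclin complexes of several phases, Cdkn1c (p57) rose in CR tumors. It was at 0.383, 0.656, 0.583 and 0.363 CPM in AS tumors and at 1.81, 0.991, 2.25 and 0.963 CPM in CR tumors. The groups did not overlap, and the increase was 1.61 (SE 0.40) on the log2 scale, 3.06-fold (adjusted p = 0.036), at a mean of 0.999 CPM over the 8 tumors. Of the windows of 1 read length in its exons, 20.5% also matched a transcript of another gene with up to 2 mismatches, mostly of Gm44732. A gene that overlaps at the same place gives the same match, so whether unique mapping removed reads is not known. Cdkn1b (p27) was at 64.9 to 78.5 CPM in AS and at 72.1 to 109 CPM in CR tumors, with a difference of 0.35 (SE 0.15, adjusted p = 0.169). Cdkn1a (p21), a p53 target, was at 3.59 to 5.09 CPM in AS and 2.91 to 9.17 CPM in CR tumors, with a difference of 0.27 (SE 0.33).

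Among the pocket proteins, Rbl2 (p130), which is found in the DREAM complex of resting cells, was at 50.5, 44.2, 43.1 and 32.9 CPM in AS and at 44.6, 100.6, 74.2 and 50.5 CPM in CR tumors. Its log2 difference of 0.67 (SE 0.26) did not pass (adjusted p = 0.126). Without primary CR1 it was 0.86 (adjusted p = 0.0137), in the fit that called 4133 of 17393 genes. Rb1 was at 17.8 to 21.9 CPM in AS and 15.4 to 25.2 CPM in CR tumors, and its difference was 0.04 (SE 0.18).

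The E2F family showed both directions. The activator E2f2 was at 10.1, 7.26, 7.60 and 8.13 CPM in the AS tumors and at 1.74, 0.297, 1.58 and 0.586 CPM in the CR tumors. This gap, with means of 8.28 ± 1.28 and 1.05 ± 0.717 CPM (SD, n = 4), was the widest of any regulator between phenotypes: E2f2 fell by 2.91 (SE 0.48) on the log2 scale, 7.50-fold (adjusted p = 0.0105). In the CR tumors E2f2 had 144, 6, 54 and 14 counts in the same order. The other activators did not follow E2f2. E2f1 was at 4.02 to 5.08 CPM in AS and 2.11 to 5.90 CPM in CR tumors, a difference of -0.10 (SE 0.31), and E2f3 differed by 0.34 (SE 0.18). The repressor E2f6 was at 0.814 to 0.911 CPM in AS and 0.248 to 0.670 CPM in CR tumors, also without overlap, but its decrease of 1.26 (SE 0.37) missed the threshold (adjusted p = 0.0595). The atypical E2f8 was at 0.957, 0.456, 1.55 and 1.92 CPM in AS and at 1.47, 1.34, 3.86 and 5.90 CPM in CR tumors. It rose by 1.25 (SE 0.32), 2.38-fold (adjusted p = 0.0364), and within each tumor type both CR tumors lay above both AS tumors, although the primary CR tumors lay below the metastatic AS tumors. Its close relative E2f7 had a difference of 0.07 (SE 0.31). Of the 40 regulators, 5 lay below in every CR tumor, which is 12.5% against 9.82% of all genes, and 1, Cdkn1c, lay above, which is 2.5% against 9.09%.

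The calls differed in how far they rested on single tumors. Ccnd3, Cdkn2c and E2f2 passed in all 8 fits that left out 1 tumor, with decreases of the same sign. Cdkn2d passed in 1 of these 8 fits, the one without primary CR1, and its adjusted p reached 0.121 in the others. Cdkn1c passed only without primary CR2 or without metastatic CR2 and reached an adjusted p of 0.12, and E2f8 passed only without primary AS1 or without primary CR1 and reached 0.131. Among the G2/M regulators the phenotype difference turned with primary CR1. Their median was 0.42 over all tumors and -0.22 without that tumor, when 2 of 10 were positive and Cdk1 passed at -0.57 (adjusted p = 0.03). The fit without that tumor called 4133 of 17393 genes. Some regulators share exon bases with a counted gene on the opposite strand, and whether the counting separated strands is not given. The shared part was 23.4% of the exon bases of Ccnd1 (with Oraov1, 270 to 4328 counts), 19.7% of Cdk4 (Tspan31, 746 to 5776), 17.4% of Ccne2 (Ints8, 663 to 4064), 12.7% of Cdc25c (Gm3550, 83 to 916), 12.5% of Ccna2 (Exosc9, 491 to 3581) and 11.2% of E2f8 (Gm2788, 0 to 16).

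**Figure D2:**
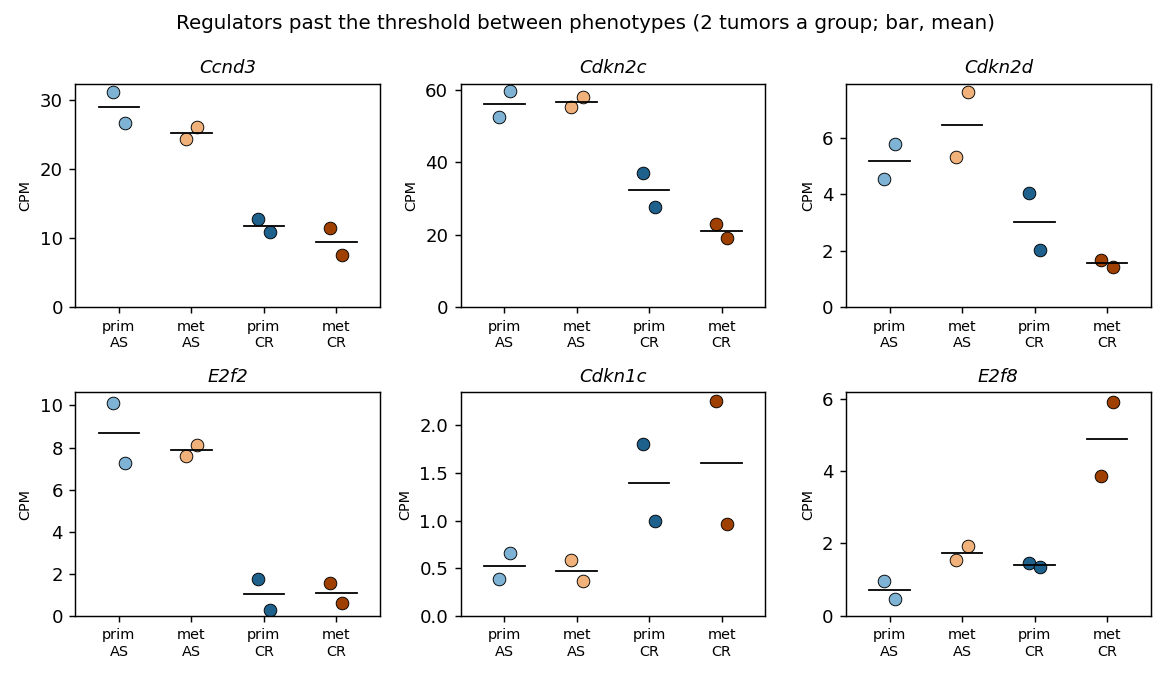
CPM of the 6 regulators that passed the threshold between phenotypes, in the 4 groups of 2 tumors, with each tumor as a point and the mean as a bar; each vertical axis starts at 0. Ccnd3, Cdkn2c, Cdkn2d and E2f2 are lower in both CR groups, Cdkn1c is higher in both, and E2f8 is highest in the metastatic CR tumors at 3.86 and 5.90 CPM.

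The second comparison asked which regulators differed between metastatic and primary tumors. Here the edgeR model held tumor type alone, so differences between phenotypes counted as spread. None of the 40 passed the adjusted threshold, and neither did any of the 17104 genes tested, so 0% of all genes were called. With phenotype as a covariate edgeR also called 0 genes, and 1146 had an unadjusted p below 0.05. With tumor type alone DESeq2 also called 0 genes, and 459 genes had an unadjusted p below 0.05 with edgeR and 611 with DESeq2. At an unadjusted p of 0.05, 6 of the 40 regulators were higher in metastatic tumors, which is 15% against 1.56% of all genes, and 0 were lower, against 1.12%. The count of higher ones was 2 without metastatic AS1, primary AS2 or primary CR2, against 2.15%, 1.21% and 2.91% of all genes. It was 3 without metastatic CR2 (0.694%), and 4 without primary AS1 (0.884%) or metastatic AS2 (1.49%). It was 7 without metastatic CR1 (2.07%) and 12 without primary CR1 (3.48%). With all tumors the 6 were E2f8, Ccnf, Ccne2, E2f7, Wee1 and Ccnb2, and the adjusted p of each was 0.997. The log2 difference was positive for 30 of the 40, which is 75%, against 46.2% of all genes. The median difference was 0.04 for G1 regulators, 0.14 for S phase regulators and 0.78 for G2/M regulators, against -0.03 over all genes. All 10 G2/M regulators had a positive difference, from 0.09 to 1.23, as did 11 of 13 S phase and 9 of 16 G1 regulators. Counts of genes within a phase are not independent, because genes of a phase vary together from tumor to tumor.

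**Figure D3:**
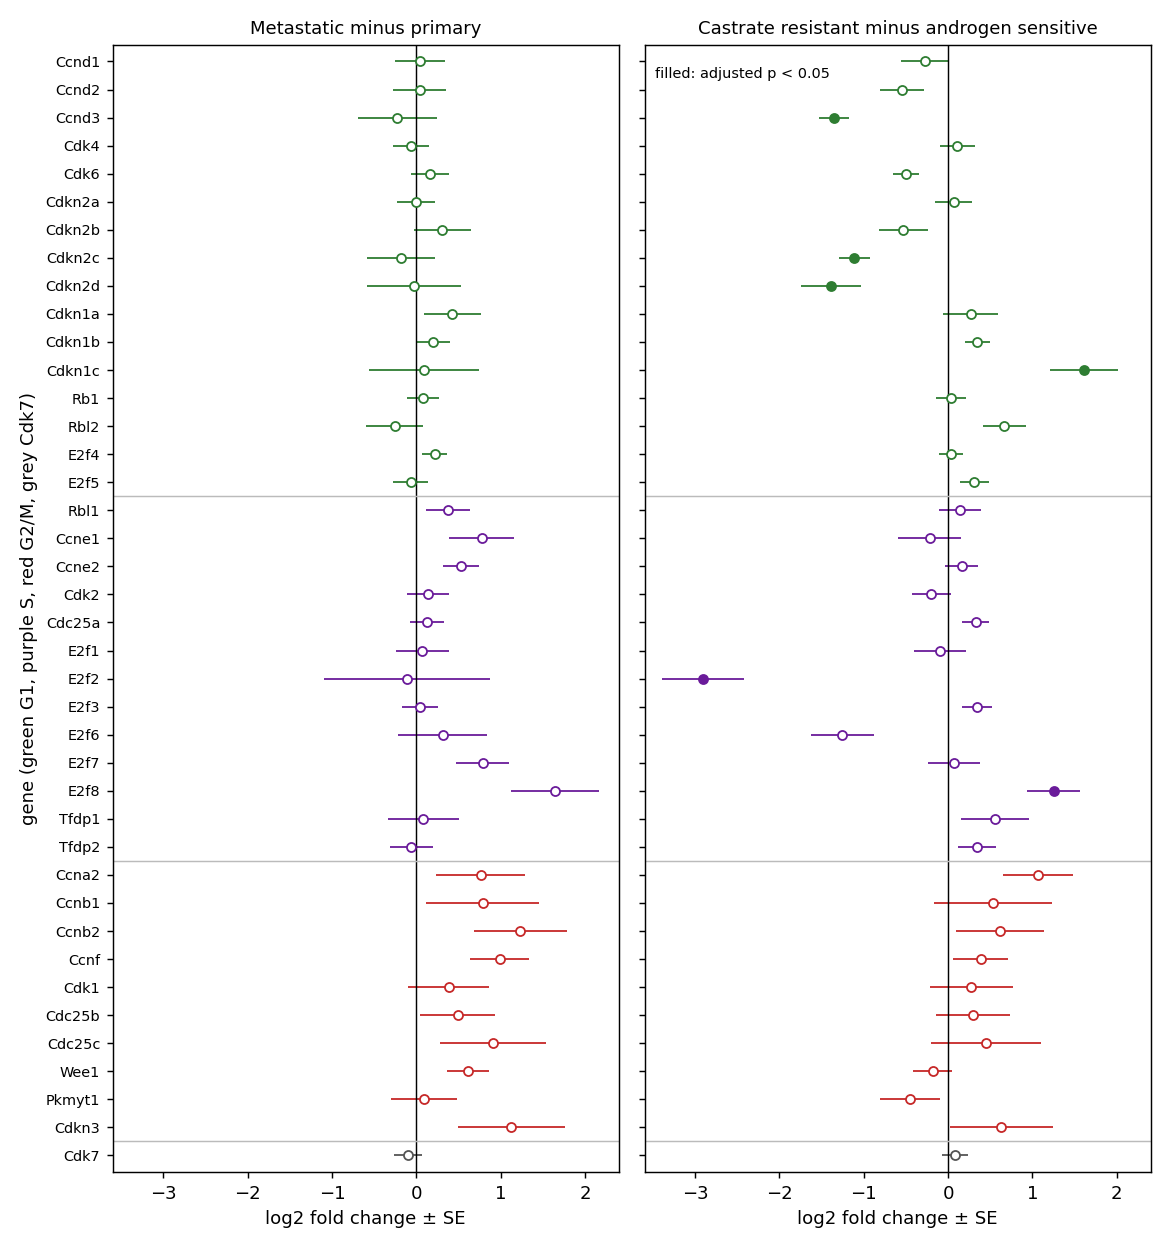
Log2 fold change with its SE for each of the 40 regulators, for metastatic minus primary tumors on the left and castrate resistant minus androgen sensitive tumors on the right, ordered by phase, with filled points for an adjusted p below 0.05. On the left no point is filled and every G2/M point lies above 0; on the right 6 points are filled, none of them in G2/M.

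Values of each tumor type are given with the AS pair first and the CR pair second. E2f8 had the largest difference between tumor types. It was at 0.957, 0.456, 1.47 and 1.34 CPM in the primary tumors and at 1.55, 1.92, 3.86 and 5.90 CPM in the metastatic tumors in the same order. Every metastatic tumor lay above every primary tumor, although the lowest metastatic and the highest primary value were close. The means were 1.05 ± 0.454 and 3.31 ± 2.01 CPM (SD, n = 4), and the log2 difference was 1.65 (SE 0.52, edgeR unadjusted p = 0.0109). E2f7 was at 0.941, 0.656, 0.788 and 0.595 CPM in primary and at 1.203, 1.11, 1.14 and 1.76 CPM in metastatic tumors. These groups did not overlap either, and the difference was 0.79 (SE 0.32, unadjusted p = 0.0332) at about 1 CPM.

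Among the E-type cyclins, which bring CDK2 to its substrates at the start of S phase, Ccne2 was at 10.4, 9.71, 15.9 and 11.3 CPM in primary and at 20.6, 15.1, 16.8 and 16.03 CPM in metastatic tumors. Only primary CR1 reached into the metastatic range, and the difference was 0.53 (SE 0.21, unadjusted p = 0.0326). Ccne1 was at 2.58, 1.82, 3.27 and 0.842 CPM in primary and at 4.33, 3.99, 3.45 and 2.93 CPM in metastatic tumors, with a difference of 0.77 (SE 0.39). Again primary CR1 was the one primary tumor above the lowest metastatic tumor. Cdk2, their kinase, differed by 0.14 (SE 0.25).

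Cyclin F, a mitotic F-box protein that is periodically expressed like the A and B cyclins, had the smallest p-value of the G2/M regulators. Ccnf was at 1.79, 1.25, 3.54 and 1.54 CPM in primary and at 4.36, 3.70, 3.74 and 4.40 CPM in metastatic tumors. The groups did not overlap, with means of 2.03 ± 1.03 and 4.05 ± 0.377 CPM (SD, n = 4), and the difference was 0.99 (SE 0.35, unadjusted p = 0.0182). The CDK1 inhibitory kinase Wee1, named after its values were seen, also did not overlap, with 1.93 to 3.03 CPM in primary and 3.1 to 3.93 CPM in metastatic tumors (0.61, SE 0.25). E2f4 was the fifth regulator without overlap, at 14.5 to 16.5 against 16.9 to 19.8 CPM (0.22, SE 0.15). These 5 genes are 12.5% of the regulators, against 0.854% of all genes with no overlap in that direction, and 0 regulators lay below, against 0.848%.

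The A and B cyclins and their kinase were less regular. Ccnb1 was at 7.45, 5.26, 32.3 and 3.17 CPM in the primary tumors and at 23.7, 24.1, 9.27 and 26.5 CPM in the metastatic tumors. Ccna2 was at 12.8, 9.27, 45.2 and 12.7 CPM in primary and at 27.4, 23.6, 24.8 and 60.4 CPM in metastatic tumors. Cdk1 was at 11.9, 12.0, 40.01 and 7.04 CPM in primary and at 27.3, 26.0, 17.6 and 21.7 CPM in metastatic tumors. In all 3 genes primary CR1 lay above most metastatic tumors while the other primary tumors lay below all of them. The differences over all 8 tumors were 0.79 (SE 0.67) for Ccnb1, 0.76 (SE 0.53) for Ccna2 and 0.38 (SE 0.48) for Cdk1, and the unadjusted p-values lay between 0.181 and 0.444. Ccnb2 was at 3.43, 3.38, 12.5 and 2.38 CPM in primary and at 10.97, 13.97, 6.64 and 19.9 CPM in metastatic tumors. Cdkn3, which encodes a CDK phosphatase, was at 0.574, 0.428, 2.11 and 0.248 CPM in primary and at 1.74, 2.05, 0.965 and 2.80 CPM in metastatic tumors. Both genes were named after their values were seen, and both overlapped between tumor types through primary CR1 alone. Of the windows of Ccnb1, 26.8% matched other transcripts, mainly of its pseudogenes, so its level is the least certain of the group.

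The G1 regulators, with the pocket proteins and most inhibitors, lay close to 0 in this comparison. The lowest p-values among the negative differences of all 40 regulators were those of Rbl2 at -0.26 (SE 0.34), Ccnd3 at -0.23 (SE 0.47), Cdkn2c at -0.18 (SE 0.40) and Cdk7 at -0.10 (SE 0.17), none with an unadjusted p below 0.46. Rbl2 was at 50.5, 44.2, 44.6 and 100.6 CPM in primary and 43.1, 32.9, 74.2 and 50.5 CPM in metastatic tumors. Ccnd1 differed by 0.04 (SE 0.30), Cdk4 by -0.06 (SE 0.22), Cdkn1b by 0.20 (SE 0.20), Cdkn1a by 0.43 (SE 0.34), Rb1 by 0.08 (SE 0.19) and E2f1 by 0.07 (SE 0.31). Cdk7 was at 44.9 to 57.8 CPM in primary and 39.4 to 52.1 CPM in metastatic tumors.

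One primary tumor stood apart in the mitotic genes. Primary CR1 was the highest of the 4 primary tumors in 9 of 10 G2/M regulators, in 7 of 13 S phase and in 5 of 16 G1 regulators. Its CPM divided by the mean of the other 3 primary tumors had a median of 3.89 over the G2/M regulators, 1.15 over the S phase and 0.920 over the G1 regulators. It was 6.10 for Ccnb1, 5.81 for Cdc25c, 5.06 for Cdkn3 and 3.34 for Tfdp1, and 0.789 for Wee1, the G2/M exception. Neither these counts nor these ratios were computed over all genes, so whether they are particular to the regulators was not tested. The library of primary CR1 also had the lowest share of mitochondrial ribosomal RNA and Lars2, 2.67%, and the part of that in the result was not tested. Without primary CR1, which was left out after its values were seen, 12 regulators had an unadjusted p below 0.05 in the metastatic direction, which is 30% against 3.48% of all genes in that fit. Of these, 7 were G2/M regulators, and the median of the G2/M regulators was 1.48. No gene was called by edgeR in that fit. DESeq2 without the same tumor called 180 of 17393 genes. Among them were 8 of the 40 regulators, Ccne2, Ccna2, Ccnb1, Ccnb2, Ccnf, Cdk1, Cdc25c and Cdkn3. In 8 of the 10 G2/M regulators every metastatic tumor lay above all of the other 3 primary tumors, and Cdc25b and Pkmyt1 were the exceptions. The same held for 4.34% of all genes.

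The balance of mitotic to G1 cyclins within each tumor showed the same tumor. Per kilobase, the B cyclins summed to 0.131, 0.0926 and 0.117 of the D-type cyclins in the primary tumors AS1, AS2 and CR2, and to 0.341 in primary CR1. In the metastatic tumors the ratio was 0.334 and 0.329 in the AS pair, 0.231 in CR1 and 0.776 in CR2. Metastatic CR2 was the highest of the 8 tumors in 15 of the 40 regulators, and primary CR2 the lowest in 13, and these were also the libraries with the smallest totals. The same counts were not made over all genes.

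**Figure D4:**
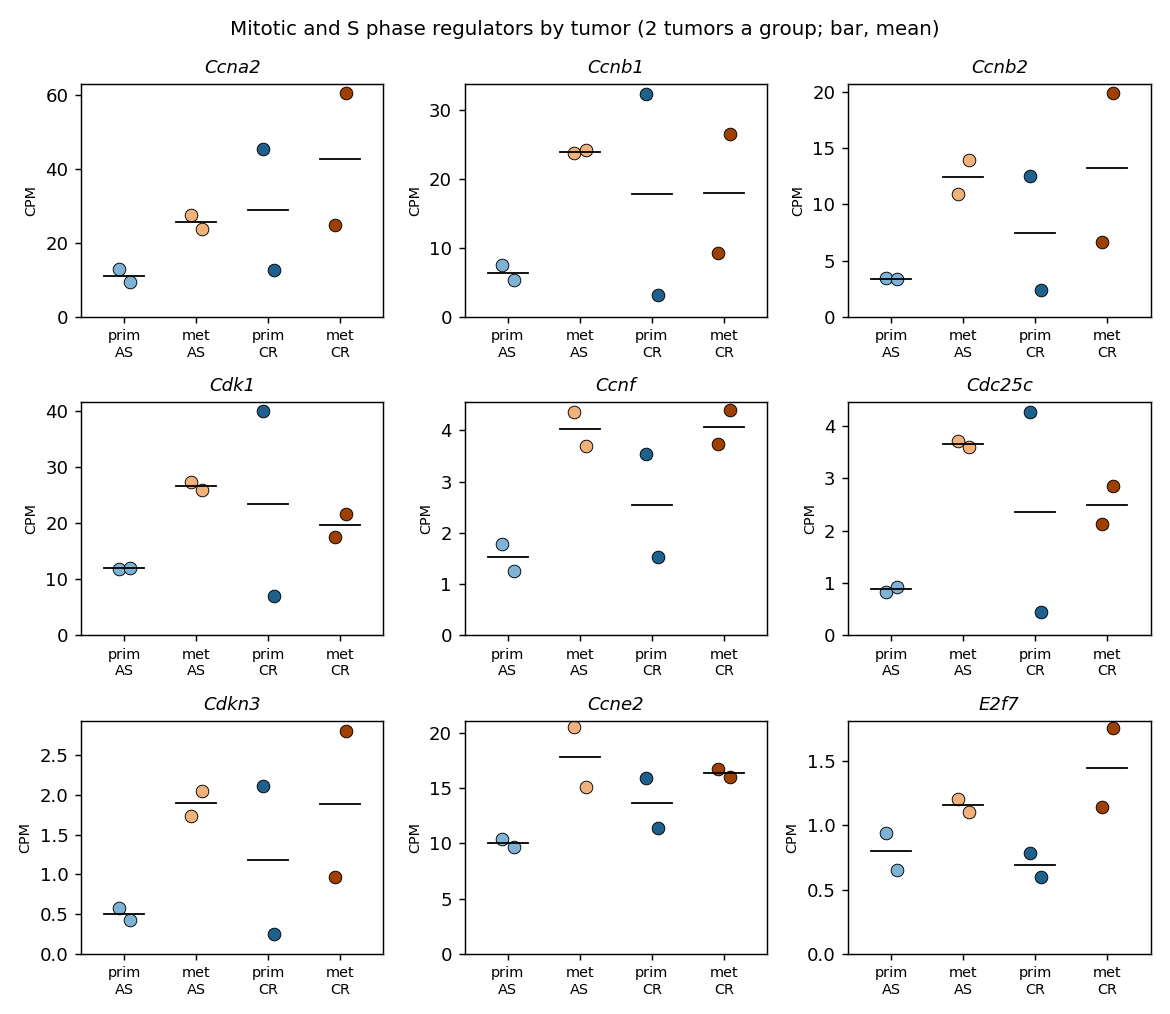
CPM of 7 G2/M regulators and of Ccne2 and E2f7 in the 4 groups of 2 tumors, with each tumor as a point and the mean as a bar; each vertical axis starts at 0. Both metastatic AS tumors lie above both primary AS tumors in every panel, while the 2 primary CR tumors lie far apart in the G2/M panels, as for Ccnb1 at 32.3 and 3.17 CPM.

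The third comparison took each phenotype separately, with a mean for each of the 4 groups and 2 tumors in each. Within AS tumors 0 of 18889 genes passed with edgeR (0% called), 462 had an unadjusted p below 0.05, and DESeq2 called 11 genes, none of them a regulator. Without the filter on low counts, 179 of 31875 genes passed, among them 4 of the 40 regulators, Ccna2, Ccnb1, Ccnb2 and Cdc25c. In the filtered fit 6 regulators had an unadjusted p below 0.05, all higher in metastatic tumors, which is 15% against 1.55% of all genes, and 0 were lower, against 0.895%. The count of 6 fell when any AS tumor was left out, and rose without either primary CR tumor. Each of these fits left a single tumor in 1 group, so their counts are not given. Over all tumors the difference was positive for 29 of 40, against 48.5% of all genes. With all tumors the 6 were Cdc25c, Ccnb2, Ccnf, E2f8, Ccne2 and Rbl1, with log2 differences of 2.05 (SE 0.80), 1.87 (SE 0.74), 1.40 (SE 0.45), 1.29 (SE 0.45), 0.82 (SE 0.27) and 0.76 (SE 0.32). Cdc25c, whose phosphatase activates CDK1 at the entry to mitosis, was at 0.8295 and 0.927 CPM in the primary and 3.71 and 3.61 CPM in the metastatic AS tumors. All 10 G2/M regulators were positive, with a median of 1.30, against 0.02 for the G1 regulators and -0.01 for all genes.

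Within CR tumors edgeR called 0 genes as well (0% called), with 1462 at an unadjusted p below 0.05, and DESeq2 called 14, none of them a regulator. E2f8 was higher in metastatic tumors by 1.76 (SE 0.45, unadjusted p = 0.00455), while Cdkn2c and Cdkn2d had differences of -0.65 (SE 0.24) and -1.02 (SE 0.42). These 3 had an unadjusted p below 0.05, that is 2.5% higher and 5% lower, against 2.37% and 5.37% of all genes. The difference was positive for 22 of 40, against 47.7% of all genes. The median of the G2/M regulators was 0.33, with 6 of 10 positive, and for Ccnb1 (-0.06, SE 0.86) and Cdc25c (-0.02, SE 0.77) the 2 primary CR tumors lay on either side of both metastatic CR tumors. The direction of the G2/M regulators turned on single tumors. Without primary CR1, 10 of 10 were positive. Without primary CR2, 3 of 10 were positive, and without metastatic CR2 the count of positive ones was 2 of 10. Each of these fits left a single tumor in 1 group, so their counts below an unadjusted p of 0.05 are not given. The interaction of tumor type and phenotype was called by edgeR for 0 genes (0% called), with 517 at an unadjusted p below 0.05, and by DESeq2 for 2. Among the regulators Cdkn2d was the only one with an unadjusted p below 0.05 (-1.34, SE 0.58, adjusted p = 0.964), against 1.54% of all genes with a negative and 1.2% with a positive interaction at that level. It was positive for 16 of 40 regulators, against 46.5% of all genes, and was negative in 9 of 10 G2/M regulators with a median of -0.95. Without primary CR1 this interaction was positive in 9 of the 10, so its direction depended on that tumor. The interaction of Ccnb1 passed without the filter on low counts, where 217 of 31875 genes passed, with the smaller metastatic difference in CR tumors. In all other fits that kept both tumors of every group no regulator passed this test.

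**Figure D5:**
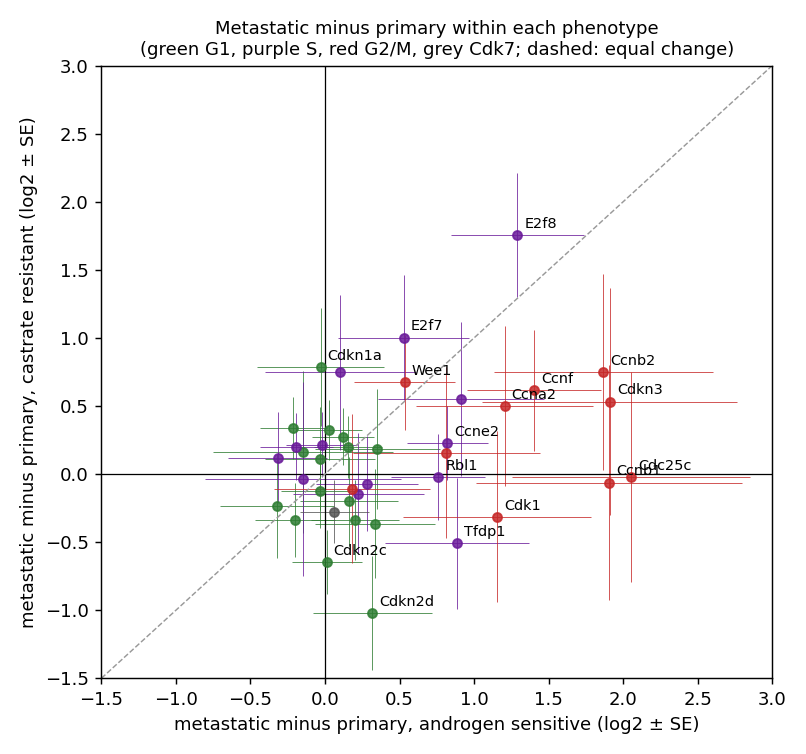
Log2 difference between metastatic and primary tumors within AS tumors (horizontal axis) and within CR tumors (vertical axis) for the 40 regulators, with SE as lines and the dashed line at equal values. E2f8 lies near the line at 1.29 and 1.76, whereas Ccnb1, Cdc25c and Cdk1 lie far to the right and near or below 0 on the vertical axis.

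Other genes of the pathway were taken from lists of textbook targets. Of 20 G2/M target genes outside the 40, 20 had a positive difference between metastatic and primary tumors with a median of 1.15, and 10 had an unadjusted p below 0.05, which is 50% against 1.56% of all genes, with 0 past the adjusted threshold. Mki67, the proliferation antigen, was at 42.8, 25.2, 65.5 and 34.4 CPM in primary and at 106, 79.5, 80.8 and 143 CPM in metastatic tumors (1.29, SE 0.32, unadjusted p = 0.00267). It did not overlap between tumor types, while the other 19 genes of the list did. Of 20 G1/S targets of E2F, 19 were positive, with a median of 0.43, and 1, Rrm2, had an unadjusted p below 0.05. In the 7 genes of DREAM, its MuvB core and the mitotic transcription factors, 3 had an unadjusted p below 0.05, namely Foxm1 (1.39, SE 0.43), Mybl2 (1.29, SE 0.54) and Lin9 (0.85, SE 0.30). Of 11 genes of cyclin degradation and CDK adaptors 1 did, Skp2 (0.87, SE 0.30), and 0 of 14 p53 targets and 0 of 16 cyclins and kinases outside the core cycle did. Between phenotypes, the share of each list past the adjusted threshold was near or below the 12.2% of all genes. It was 5% of G1/S targets, 14.3% of the DREAM list, 9.09% of degradation and adaptor genes and 14.3% of p53 targets. It was 0% of the cyclins and kinases outside the core cycle. The genes that passed were the replication helicase component Cdc45 (-1.13, SE 0.29) and the MuvB subunit Lin37 (-0.98, SE 0.24). The others were the ubiquitin ligase scaffold Cul1 (0.63, SE 0.15), and the p53 targets Mdm2 (-0.61, SE 0.15) and Eda2r (2.52, SE 0.38). None of the 20 G2/M targets did, although all 20 had a positive difference with a median of 0.41. Their summed level was 479 CPM in primary CR1, against 129 to 192 CPM in the other primary tumors and 322 to 692 CPM in the metastatic tumors.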

How the data were processed

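The members and gene lists were chosen with earlier results of these data known. The authors removed ribosomal RNA, made strand specific libraries, read them from both ends, placed the reads on mm10 with Bowtie where they had 1 location with at most 2 mismatches, and deposited raw counts per gene without normalization. The submitters' processing notes name CASAVA 1.8.2, TopHat2 2.0 and GRCm38. The counting tool, its annotation and its use of strand are not given in the sources used here, so reads of a gene and of an overlapping gene on the other strand may not be separated. Of 38115 genes listed, 36343 were found in GENCODE M21, which gave coordinates and exon lengths.

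The software was edgeR 4.0.16 under R 4.3.3. After filterByExpr and TMM scaling (factors 0.811 to 1.15), each gene was tested with the quasi-likelihood F test, with tumor type alone, with phenotype and tumor type, or with the 4 group means. Adjustment was by Benjamini and Hochberg over every gene tested, with a threshold of 0.05. SE is the log2 fold change divided by the square root of F. All 40 members passed the filter in every comparison, and CPM is relative to the effective library size. The labels give groups and call the metastases matched. They do not say which tumor shares a mouse or culture, so p-values measure the spread between these tumors. The test between phenotypes had no block for matched tumors and treated all tumors of a phenotype as independent. DESeq2 1.42.0, RLE factors, other filters, other terms and leaving out each tumor were the alternatives, and both fits that join another setting with leaving out primary CR1 were chosen after seeing the data. Total counts were 20905806 to 91886163 per tumor. Counting error is small except for the lowest members and for members with few reads in the smallest libraries. The number of tumors limits the precision. The fits were tested on simulated counts.

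Members named by rule were those past the threshold in any comparison, and the 4 of lowest p-value among the higher and among the lower in both main comparisons. Ccnd1, Ccne1, Ccna2, Ccnb1, Cdk1, Cdk4, Cdkn1a, Cdkn1b, Cdkn2a, E2f1 and Rb1 were named whatever their values. All of these are given per tumor or as ranges. Others named, such as Ccnb2, Cdkn3 and Wee1, were chosen after their values were seen. Windows of 1 read length were matched to all transcripts with up to 2 mismatches by bwa 0.7.19. Promoters were taken from RefSeq (GRCm38.p6). The original DESeq package was not run, and figures were drawn with matplotlib 3.10.9. Some markers of the prostate epithelium are not reported here.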

Additional observations from a re-analysis of the deposited data

Results flagged for a closer look

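A tumor far from the 3 others of its group was found in 6 of 88 groups of 4 tumors examined for the named regulators, and chance alone flags about 1 in 20 groups. Metastatic CR1 was the lowest metastatic tumor for Ccnb1, at 9.27 CPM against 23.7 to 26.5 CPM. Metastatic CR2 was the highest metastatic tumor for Ccna2, at 60.4 CPM against 23.6 to 27.4 CPM, and for E2f7, at 1.76 CPM against 1.11 to 1.203 CPM. Primary CR2 was the highest primary tumor for Rbl2, at 100.6 CPM against 44.2 to 50.5 CPM. It was also the lowest castrate resistant tumor for Ccne2, at 11.3 CPM against 15.9 to 16.8 CPM, and for Ccne1, at 0.842 CPM against 2.93 to 3.45 CPM. All 6 were castrate resistant tumors, and primary CR1 was not among them.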

How the results depend on the processing

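Between metastatic and primary tumors, 440 log2 differences of the named regulators were refitted under alternatives, of which 57 changed sign and 5 came to pass the adjusted threshold, all 5 under DESeq2 without primary CR1. Between phenotypes, 308 were refitted, of which 17 changed sign, 20 lost the threshold and 4 gained it. The cause was not tested for any of these. Unless all genes with at least 1 count were tested, the median difference of all genes moved by less than 0.1; in that fit it moved to 0.11 in both comparisons.

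No paired analysis was possible because the labels do not say which primary tumor each metastasis matches. The 4 pairings that are possible within a phenotype were fitted as a replicate block, with 0 genes called in each. At an unadjusted p below 0.05, 6, 11, 6 and 9 regulators were higher in metastatic tumors, against 3.22%, 2.77%, 2.69% and 2.51% of all genes, where the fit without a block had 6 and 1.56%. Under pairings 1 to 4 the log2 difference was 0.0383, 0.0367, 0.0384 and 0.0367 for Cdkn2a, 0.0299, 0.00041, 0.0337 and 0.00344 for E2f2, and -0.0182, -0.00403, -0.0183 and -0.00474 for E2f1, and for Cdkn1c it was -0.00841 under pairing 2 and -0.00536 under pairing 4.

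In the same comparison Cdkn2a was at 0.0172 with DESeq2, 0.018 with RLE factors, 0.00701 scaled to protein-coding genes, 0.00274 with at least 10 counts in 4 tumors and 0.00244 with phenotype as a covariate, and Ccnd1 was at -0.00831 with at least 1 count. Both fits chosen after seeing the data left out primary CR1. DESeq2 then called 8 of the 40 regulators and 180 of 17393 genes. The G2/M median was 1.49, with Cdk4 at 0.13, Cdkn2a at 0.23 and Rb1 at -0.0125. With phenotype as a covariate the G2/M median was 1.41, and Cdkn2d was at 0.0652, E2f2 at 0.32, Cdk4 at 0.13, Cdkn2a at 0.26 and Rb1 at -0.0625.

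Between phenotypes, 3442 genes passed an adjusted p of 0.1 and 3544 passed with DESeq2, against 2081. Ccna2 passed with DESeq2 and with at least 1 count, and Cdk6 and E2f6 with DESeq2. Without a term for tumor type 1 regulator was higher, since E2f8 no longer passed. With at least 1 count E2f7 was at -0.0234, Cdk7 at -0.00665, Cdkn2a at -0.0248 and Rb1 at -0.0672. Within AS tumors DESeq2 called 11 genes, and with at least 1 count 4 regulators and 179 of 31875 genes were called. Within CR tumors these counts were 14 genes with DESeq2 and 375 with at least 1 count. For the interaction they were 2 with DESeq2, and 1 regulator and 217 genes with at least 1 count.

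When each tumor was left out in turn, the G2/M median between tumor types ranged from 0.57 to 1.48, the latter without primary CR1. The differences that changed sign there ranged from -0.50 to 0.0492 for Ccnd3, -0.44 to 0.041 for Cdkn2c, -0.54 to 0.25 for Cdkn2d, -0.61 to 0.63 for Cdkn1c, -0.57 to 0.52 for E2f2, -0.49 to 0.13 for Rbl2, -0.13 to 0.27 for Ccnd1, -0.15 to 0.12 for Cdk4, -0.10 to 0.22 for Cdkn2a, -0.10 to 0.31 for E2f1 and -0.0267 to 0.14 for Rb1. Between phenotypes 0 to 2 regulators were higher and 3 to 6 lower, and 481 to 4133 genes were called, 4133 of them without primary CR1 and 481 to 1116 in the other 7 fits. The median ranged from -0.14 to 0.0552 for G1 and from -0.22 to 0.71 for G2/M regulators. The ranges that crossed 0 were -0.0105 to 0.31 for Ccne2, -0.11 to 0.22 for E2f7, -0.72 to 0.0234 for Ccne1, -0.64 to 0.99 for Ccnb1, -0.57 to 0.51 for Cdk1, -0.0826 to 0.26 for Cdk4, -0.0504 to 0.49 for Cdkn1a, -0.20 to 0.21 for Cdkn2a, -0.40 to 0.17 for E2f1 and -0.0749 to 0.16 for Rb1. Within CR tumors 0 to 235 genes were called, and for the interaction 0 to 1 regulator and 0 to 82 genes, in each case above 0 only without primary CR2, when 1 CR group holds a single tumor that is assumed to vary like the others. Depth limits mainly the lowest members, such as E2f7 and Cdkn1c near 1 CPM, and members with few reads in the smallest libraries. In primary CR2, E2f2 had 6 counts, Cdkn3 5, Cdc25c 9 and Ccne1 17. On simulated counts, changes of 2-fold were recovered in 2% and of 4-fold in 64% of genes between tumor types, and in 28% and 92% between phenotypes. In these comparisons 6 and 13 unchanged genes were called. The changed genes, 50 for each fold change, had a mean of at least 50 counts, and no other difference was simulated. The shares therefore do not describe members with lower counts.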
